A study of Mus musculus with 8 samples.

Results

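Venous endothelial cells line the veins and venules that drain a tissue. In the stromal vascular fraction (SVF) of mouse inguinal white adipose tissue (iWAT), 90 cells met the definition used here, of 8164 blood endothelial cells and of 36370 cells kept in all. A cell was kept if its barcode held 700 to 30000 unique molecular identifiers (UMIs, each standing for 1 captured RNA molecule), 200 to 8000 detected genes, and at most 10% of its UMIs from mitochondrial genes. A venous cell then held at least 3 UMIs summed over the endothelial genes Pecam1, Cdh5 and Egfl7, and at least 2 UMIs of Selp plus Ackr1. It held at most 1 UMI summed over Sema3g, Hey1, Gja5 and Stmn2, and none of Prox1 (lymphatic endothelium), Ptprc (leukocytes) or Pdgfra (fibroblast-like progenitors). These 12 genes chose the cells, so their levels are given only as a description, and the same holds for every contrast between venous cells and other cells, since all were picked on their own counts.

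The SVF is the cell suspension left after fat is digested with collagenase and the floating adipocytes are removed. The 8 libraries came from mice on regular chow, of the strain C57BL/6 by the labels and C57BL/6J by the study. In 4 of them (Ad-Lib, replicates 1, 3, 5 and 7) food was freely available, and in the other 4 (TAN, replicates 2, 4, 6 and 8) it was given in 2 meals a night. Age is uncertain: it is 8 weeks in the labels, but the study describes older males fed in this way for months. The study describes 4 mice a group with animals as the replicates, while the labels name no animals, and p-values measure the spread between these libraries.

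P-selectin, the product of Selp, is stored in endothelial Weibel-Palade bodies together with von Willebrand factor (Vwf) and is moved to the cell surface when the cell is activated. There it slows passing leukocytes, and E-selectin (Sele), Icam1 and Vcam1 take part in their rolling and arrest, mostly in postcapillary venules. Ackr1 is an atypical chemokine receptor that carries chemokines across venular endothelium. Venous identity is maintained by the transcription factor Nr2f2, and veins carry the receptor Ephb4 where arteries carry its ligand ephrin-B2 (Efnb2).

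The libraries held 25320800 to 37140950 UMIs and 3717 to 5654 kept cells each. Of 44172 distinct barcode sequences, 252 occurred in more than 1 library, with 5 to 16 shared by any pair. A score against simulated doublets marked 1351 of the kept cells (3.71%), among them 4 venous cells, which were left in.

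Each library contributed between 5 and 17 venous cells. The Ad-Lib libraries 1, 3, 5 and 7 held 16, 8, 10 and 10 of them, and the TAN libraries 2, 4, 6 and 8 held 17, 13, 5 and 11. As a share of blood endothelial cells these were 1.37%, 0.802%, 1.00% and 1.22% in Ad-Lib and 1.17%, 1.14%, 0.631% and 1.39% in TAN. The groups overlapped over most of their range. The share of blood endothelial cells averaged 1.10% (SD 0.248, n = 4) under Ad-Lib feeding and 1.08% (SD 0.320, n = 4) under TAN feeding, a difference of -0.0156 percentage points (two-sided exact permutation test over the 70 assignments of libraries, p = 0.886, and 0.886 after adjustment over both shares tested). Of all cells kept, venous cells made up 0.252% ± 0.0625 in Ad-Lib and 0.257% ± 0.126 in TAN (SD, n = 4 each, exact permutation p = 0.886). The smallest p that this design allows is 0.0286. Counting error alone is wide at these numbers: the 95% exact binomial interval of the share in Ad-Lib 1 ran from 0.784% to 2.21%.

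Venous cells were deep. Their median was 7737.5 UMIs per cell, and 30 of the 90 held more than 10000, whereas the library medians of capillary cells lay between 3753.5 and 4260. The definition was applied to all cells at their own depth. The median per library was 8230, 5542.5, 6583 and 5277.5 UMIs in Ad-Lib 1, 3, 5 and 7, and 10228, 8046, 7179 and 8913 in TAN 2, 4, 6 and 8. The 2 groups overlapped through Ad-Lib 1, which lay above TAN 4 and TAN 6, and the difference of 2183.25 UMIs did not pass the exact permutation test (p = 0.0857). The part of this depth difference in the comparison of shares was not tested beyond the thinned values given in the closing section.

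**Figure D1:**
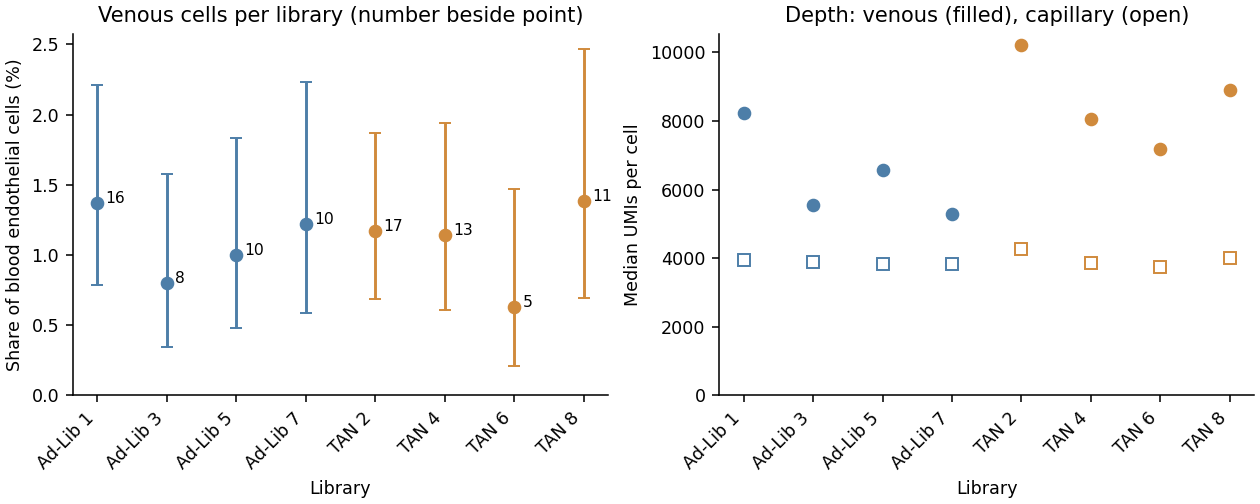
The left panel plots the share of blood endothelial cells that were venous (%) in each library, with its 95% exact binomial interval and the number of venous cells beside the point, and the right panel plots the median UMIs per venous cell (filled circles) and per capillary cell (open squares). The shares of Ad-Lib (blue) and TAN (orange) libraries overlap, with Ad-Lib between 0.802% and 1.37% and TAN between 0.631% and 1.39%, and the venous medians, 5277.5 to 10228 UMIs, lie above the capillary medians in every library.

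Selp carried most of the definition. It was detected in 88 of the 90 cells (435 UMIs), and Ackr1 in 38 (134 UMIs). Both were detected in 36 cells, Selp without Ackr1 in 52 and Ackr1 without Selp in 2. Selp lies on chromosome 1 at 164115264-164150026 (plus strand) and Ackr1 on the same chromosome at 173331886-173333750 (minus strand), in build GRCm38. At the lower limit, 29 cells held exactly 2 UMIs of Selp plus Ackr1 and 61 held 3 or more.

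Genes that the definition did not use changed stepwise across its threshold. In the pooled UMIs of cells that met every other condition, Vwf stood at 13.4 CPM (UMIs of the gene per 1000000 UMIs) in the 6299 cells with no Selp or Ackr1 UMI. It stood at 106 CPM in the 61 cells with 1 such UMI, at 253 CPM in the 29 cells with 2, and at 461 CPM in the 61 cells with 3 or more. Lrg1, a secreted glycoprotein of activated venules, followed the same order at 33.6, 288, 560 and 913 CPM. Plvap, which forms the diaphragms of endothelial fenestrae and caveolae, stood at 96.2, 512, 822 and 1125 CPM, and Vcam1 at 6.81, 185, 213 and 481 CPM. The cells just outside the limit were thus intermediate for all 4 genes. Gpihbp1, which anchors lipoprotein lipase on capillary endothelium, went down only part of the way, with 2624, 1497, 1615 and 1205 CPM.

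**Figure D2:**
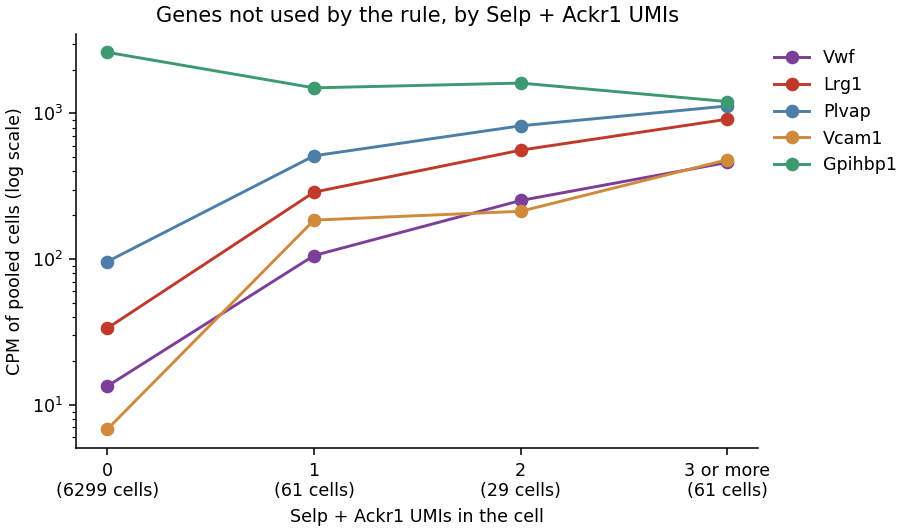
Pooled level (CPM, log axis) of 5 genes outside the definition in cells that met its other conditions, by the number of Selp plus Ackr1 UMIs in the cell, with the number of cells below each step. Vwf, Lrg1, Plvap and Vcam1 are higher at each step from 0 to 3 or more UMIs, while Gpihbp1 is lower in the venous cells (2 or more UMIs) than at 0 but is not lost.

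The arterial limit removed a further group of cells through 1 gene. Besides the 90, 16 cells held at least 2 UMIs of Selp plus Ackr1 and passed every condition except the arterial one. All 16 failed it through Stmn2, a microtubule regulator best known from neurons, with 48 UMIs of Stmn2 and none of Sema3g, Hey1 or Gja5. The 8 of them with an arterial sum of 2 had 651 CPM of Vwf, 1035 CPM of Lrg1, 1352 CPM of Plvap and 634 CPM of Vcam1. The 8 with a higher sum had 483, 1338, 1310 and 717 CPM of the same genes. These levels were all above those of the cells with 3 or more Selp plus Ackr1 UMIs. Without the Stmn2 limit the count would be 106 cells.

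Levels were next compared with 4759 capillary cells (at least 3 UMIs of Gpihbp1, Rgcc and Car4, none of Selp, Ackr1 or the arterial genes) and 1230 arterial cells (at least 3 UMIs of the arterial genes, at most 1 of Selp plus Ackr1). Stmn2 counted as an arterial gene, so a cell could enter the arterial class on Stmn2 alone. The share of such cells was not examined. UMIs were summed per class in each library and expressed as CPM, so each value below is a mean of 8 libraries, and counts of libraries are descriptions without a test. Most other venous markers were high in these cells. Of 16 further venous markers, 11 were above the capillary level in all 8 libraries, compared with 4.56% of all 8661 genes with at least 10 CPM in either class, and their median log2 ratio to capillary cells was 2.74 (-0.089 over all genes).

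Vwf (chromosome 6, 125546774-125686679, plus strand) ranged from 269 to 593 CPM over the 8 libraries, with a median of 440. Its mean of 424 ± 110 (SD, n = 8) compared with 10.1 ± 3.08 in capillary and 111 CPM in arterial cells, and no venous library overlapped either class. Thinning every cell to 2000 UMIs, which leaves out shallower cells, gave a Vwf UMI in 34 of 85 venous cells (40%). The corresponding shares were 18.2% of 1171 arterial cells, 1.42% of 4148 capillary cells and 0.0571% of 1752 B cells, a type that should lack the gene. Lrg1 ranged from 420 to 1147 CPM (median 838), against means of 33.0 in capillary and 24.4 in arterial cells. Plvap stood at 806 to 2007 CPM (median 1035), against 91.0 and 143.

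Adhesion molecules of leukocyte arrest were among the venous markers. Vcam1 (chromosome 3, 116109949-116129688, minus strand) ranged from 193 to 865 CPM in venous cells (median 363), against 7.13 ± 3.43 in capillary cells and 16.4 in arterial cells. Icam1 had a mean of 262 ± 144 CPM, against 50.5 and 51.9. Sele was at 83.2 ± 66.6 CPM, with 57 UMIs in 19 cells and none in Ad-Lib 3, whereas capillary cells averaged 0.0357 CPM and arterial cells had no UMI. Cells with UMIs of all 3 genes numbered 10 of the 90. Over the whole leukocyte adhesion list, however, 3 of 17 genes were higher and 3 lower than in capillary cells in all 8 libraries, against 4.56% and 6.64% of all genes.

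Transcription factor and receptor markers differed by smaller factors. Nr2f2 had 276 ± 84.6 CPM in venous cells against 94.1 in capillary and 82.6 in arterial cells, and Ephb4 had 197 ± 51.5 against 96.8 and 84.6. Il1r1, the receptor for interleukin-1, had a median of 103 CPM (35.0 to 130) against means of 12.7 and 21.0. The matrix proteoglycan Bgn stood at 393 ± 77.0 against 62.5 and 98.3. Other listed markers did not separate from capillary cells: Emcn, a sialomucin of veins and capillaries, averaged 470 CPM in venous and 473 CPM in capillary cells and was higher in 3 of 8 libraries, and Cpe was higher in 5 of 8.

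**Figure D3:**
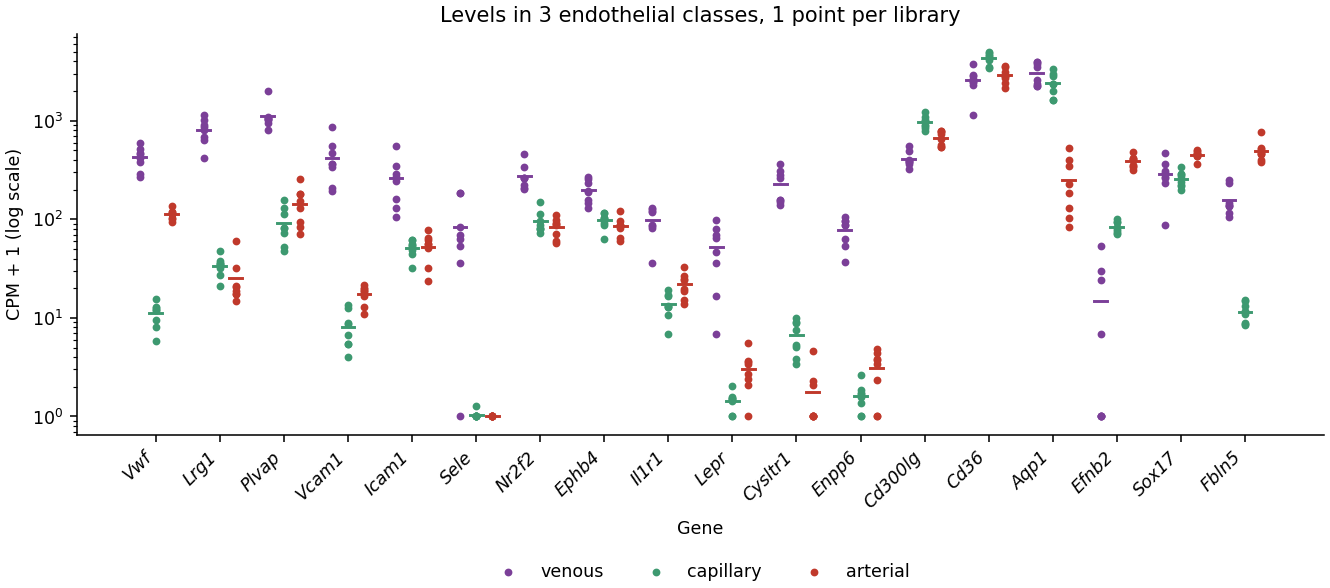
Level (CPM + 1, log axis) of 18 genes in venous (purple), capillary (green) and arterial (red) cells, with 1 point per library and a bar at the mean of 8 libraries. Vwf, Lrg1, Plvap, Vcam1, Lepr, Cysltr1 and Enpp6 have every venous point above every capillary point, while Cd36, Cd300lg and Aqp1 remain present in venous cells and Efnb2 is lowest there.

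Capillary markers were lower but mostly not absent. Of 12 such genes, 10 lay below the capillary level in all 8 libraries, against 6.64% of the 8661 genes; Gpihbp1, Rgcc and Car4 are among the 12 and helped to choose the capillary cells. Kdr, the main VEGF receptor, averaged 285 CPM against 1088, and Cd300lg, a capillary and venular adhesion receptor, 410 against 965. Btnl9 was at 19.0 against 452 CPM. Cd36, a fatty acid translocase, averaged 2559 CPM in venous cells against 4309. The water channel Aqp1 was the exception, with 3078 CPM in venous and 2392 in capillary cells (higher in 7 of 8 libraries) and 250 in arterial cells. Gene by gene, arterial markers were low: Efnb2 averaged 13.8 CPM, against 82.8 in capillary and 385 in arterial cells, the Notch ligand Dll4 16.3 against 162 and 239, and the gap junction gene Gja4 3.96 against 13.3 and 166. Cxcr4 and Gkn3 had no UMI. Fbln5, an elastic fibre protein, was intermediate at 158 CPM, between 10.5 in capillary and 496 in arterial cells. Lyve1 and the 2 Ccl21a identifiers of lymphatic endothelium had no UMI in the 748740 UMIs of all venous cells, which allows a level of up to 4.01 CPM.

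Markers of other cell types were present to different extents. All 9 T cell markers were at 0, and of the B cell markers 5 of 8 had a UMI, with Cd79a, Cd79b and Ighd at 0. Fibroblast and pericyte genes rested on few cells: 1 Ad-Lib 7 cell held 74 of the 90 Col1a1 UMIs, 1 Ad-Lib 1 cell held 70 of the 138 Dcn UMIs, and 9 cells held all 198 UMIs of the smooth muscle actin Acta2. The pericyte gene Rgs5 had 366 UMIs in 37 cells. Tagln, a smooth muscle gene, averaged 798 CPM against 36.7 in capillary cells and was higher in all 8 libraries. The summed level of the 11 pericyte and smooth muscle markers ran from 446 to 1488 CPM in Ad-Lib and from 633 to 4045 in TAN, and that of the fibroblast markers from 555 to 12973 in Ad-Lib and from 182 to 788 in TAN. The share of these transcripts in the venous levels was not tested.

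Of 2896 genes with at least 50 CPM in venous cells, 345 (11.9%) were above capillary cells and 290 (10%) above arterial cells in all 8 libraries. Among the genes higher in all 8 libraries, which leaves out Sele, the largest ratios over capillary cells belonged to the phosphodiesterase Enpp6 (128-fold) and the leptin receptor Lepr (115-fold). Enpp6 averaged 77.3 ± 24.3 CPM against 0.604. They were followed by Vcam1 (58.7-fold), Vwf (42.1-fold) and Cysltr1 (40.2-fold), then by Pdia5, Il6, the serine protease Prss23, the microfibril gene Fbn1 and Myrip. Cysltr1 (chromosome X, 106574346-106603679, minus strand), a receptor for cysteinyl leukotrienes, averaged 227 ± 86.9 CPM in venous cells, 5.64 in capillary and 0.755 in arterial cells, and among the genes above arterial cells in all 8 libraries it had the largest ratio (301-fold). Ptgs1, cyclooxygenase-1, was also among the 10 leading genes over arterial cells, at 225 ± 52.9 CPM against 7.98, with 22.2 in capillary cells. The other leading genes over arterial cells were Klk8, Lhx6, Pgm5, Enpp6, Rasa4, Fgl2, Lrg1 and the chemokine Cxcl16.

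Lepr (chromosome 4, 101717404-101815352, plus strand) encodes the receptor through which leptin, a hormone made by adipocytes, signals to cells. It was detected in 21 of the 90 venous cells (23.3%, 95% exact binomial interval 15.1% to 33.4%) with 35 UMIs, which is 14.5% of the 241 Lepr UMIs of all kept cells, from 0.247% of those cells. In Ad-Lib 1, 3, 5 and 7 venous cells had 6, 1, 5 and 2 Lepr UMIs (46.1, 15.7, 67.7 and 35.0 CPM). In TAN 2, 4, 6 and 8 they had 1, 7, 3 and 10 (5.80, 63.5, 78.2 and 97.2 CPM). Every library thus had at least 1 UMI, and the feeding groups overlapped, with TAN 2 lowest and TAN 8 highest.

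Lepr followed the venous genes at the threshold. A UMI was found in 26 of 7987 blood endothelial cells with no Selp or Ackr1 UMI (0.326%), in 7 of 71 with 1 (9.86%), and in 10 of the 16 cells set aside for Stmn2 (62.5%, interval 35.4% to 84.8%). It was found in 8 of 4759 capillary cells (0.168%), 12 of 1230 arterial cells (0.976%), 9 of 6775 cells with at least 2 Pdgfra UMIs (0.133%) and 4 of 8988 cells with Ptprc (0.0445%). Mural cells, taken here as cells with at least 3 UMIs of Rgs5, Kcnj8, Abcc9, Pdgfrb and Notch3 and no endothelial UMI, had a UMI in 33 of 4108 (0.803%) and held 36.1% of all Lepr UMIs. In pooled CPM, Lepr stood at 46.7 in venous cells, 174 in the cells set aside for Stmn2, 2.23 in mural cells and 0.418 in capillary cells. These shares were not thinned to equal depth, and venous cells were deeper than capillary cells. Intervals cover counting error only.

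Ackr1 divided the venous cells further. The 38 cells with an Ackr1 UMI and the 52 without had similar depth, with medians of 7255 and 8195.5 UMIs. Pooled CPM of Vwf was 699 in cells with and 223 in cells without Ackr1, and that of Sele was 161 and 23.8, from 13 and 6 cells. One TAN 8 cell held 17 of the 46 Sele UMIs of cells with Ackr1, and without it their level was 105 CPM. Lrg1 stood at 1028 and 687 CPM, Plvap at 1318 and 873, and Icam1 at 350 and 231. Vcam1 was close, at 427 and 398 CPM. The split uses a gene of the definition and was made after values were seen, so it is a description of these cells without a test.

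Gene lists for the functions of venous endothelium were compared with capillary cells in the same way, over members with at least 10 CPM in either class. For all 8661 such genes the shares were 4.56% higher and 6.64% lower in all 8 libraries, with a median log2 ratio of -0.089. Members named in the next paragraphs were chosen after their values were seen. Among chemokine and cytokine genes, 7 of 19 were higher and 1 lower in all 8 libraries. Il6st, the shared signal transducer of the interleukin-6 family, averaged 1125 ± 314 CPM against 170, and its partner Lifr 506 against 193. Interleukin-6 itself had 120 ± 129 CPM against 3.67, with an SD as large as its mean. Csf1, the macrophage growth factor, stood at 77.2 against 17.0 CPM. Cxcl12 was the gene below capillary cells in all libraries, at 592 against 1049.8 CPM.

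Of 20 Weibel-Palade and haemostasis genes, 7 were higher and 2 lower in all 8 libraries, against 4.56% and 6.64% of all genes. Besides Vwf and Ptgs1, the higher genes included Thbd and Procr, receptors of the anticoagulant protein C pathway, at 320 against 138 and 72.0 against 10.1 CPM. The vasoconstrictor precursor Edn1 had 89.6 CPM against 6.31, with 180 in arterial cells. Angpt2 and the thrombin receptor F2r were the lower ones, at 13.1 against 46.6 and 2.65 against 32.0 CPM. Of 15 NF-kB genes, 4 were higher and none lower, among them Nfkbia (1505 against 440) and Socs3 (587 against 331). Of 20 immediate early genes, 6 were higher and none lower, including Atf3 (884 against 258) and Nr4a1 (351 against 84.0).

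Lipid handling went the other way. Of 22 such genes, 2 were higher and 11 lower in all 8 libraries (all genes 4.56% and 6.64%), with a median log2 ratio of -0.60. Lpl, lipoprotein lipase, averaged 204 CPM against 1044, the nuclear receptor Pparg 59.5 against 172, the glycerol channel Aqp7 68.4 against 315 and the lipid droplet protein Plin2 62.0 against 263. Of 15 adipocyte markers, 11 were lower in all 8 libraries and none higher. In the insulin, IGF and leptin list, 6 of 20 were higher and 1 lower: Igf1 averaged 222 ± 92.9 CPM against 35.6, the signalling inhibitor Socs2 251 against 76.8 and the IGF-binding protein Igfbp4 220 against 48.6, beside Lepr. The insulin receptor Insr averaged 78.7 against 36.1 CPM and was higher in 6 of 8.

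In the VEGF, Notch and BMP list, 5 of 31 genes were higher and 12 lower in all 8 libraries (all genes 4.56% and 6.64%). The higher genes included the co-receptor Nrp2 (554 against 240 CPM), the morphogen Bmp4 (122 against 9.75) and the Notch ligand Dll1 (80.8 against 18.5). The lower ones included the co-receptor Nrp1 (393 against 708), Hes1, a Notch target (182 against 404), and Id1, a BMP target (303 against 724). Clock genes were sparse: Arntl, Npas2 and Ciart had no UMI, and of 15 compared none was higher in all 8 libraries and only Per2 was lower in all.

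Whether feeding changed the venous transcriptome was asked with edgeR's quasi-likelihood test on UMIs summed per library, in the 6 libraries with at least 10 venous cells (Ad-Lib 1, 5 and 7, and TAN 2, 4 and 8). With Benjamini-Hochberg adjustment, none of 1555 genes passed an adjusted p of 0.05 and a 1.5-fold change (0%), and the lowest adjusted p was 0.0967. At an unadjusted p under 0.05 there were 127 genes (8.17%), 56 higher and 71 lower in TAN. DESeq2 also called 0 genes, with 98 at an unadjusted p under 0.05. The median standard error was 0.334 on the log2 scale.

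A fit of all 8 libraries, added after the data were seen, called 5 of 1246 genes (0.401%), all lower in TAN: Cldn5, S1pr1, Aqp1, Arrb1 and Tiparp, each with an edgeR adjusted p just under the threshold of 0.05. At an unadjusted p under 0.05 this fit held 108 genes (8.67%). It includes Ad-Lib 3 and TAN 6, with 8 and 5 cells. Leaving 1 library out of it left 0 calls, except without Ad-Lib 7, where 2 genes were called. With at least 3 UMIs of Selp plus Ackr1 required, 2 genes were called in 8 libraries, S1pr1 among them. No gene was called with at least 1 Vwf UMI required (816 genes tested), with venous cells thinned to 2000 UMIs (211) or without the Stmn2 limit (1327). The same held with cells holding 2 or more UMIs of other cell types' markers left out (579), where Tagln, Rgs5, Gsn and Cd34 did not count. Under these 5 settings the log2 fold change, where the gene was tested, stayed below 0: -2.76 to -1.29 for Cldn5, -1.33 to -1.12 for S1pr1, -0.70 to -0.60 for Aqp1, -2.08 to -1.47 for Tiparp and -1.47 to -1.05 for Arrb1. The 5 genes are described because this fit called them.

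Cldn5 (chromosome 16, 18776847-18778262, plus strand) encodes claudin-5, the tight junction protein of endothelium. It stood at 1413, 1083, 852 and 490 CPM in Ad-Lib 1, 3, 5 and 7, and at 302, 381, 0 and 204 CPM in TAN 2, 4, 6 and 8. Every TAN library lay below every Ad-Lib library, a pattern that 2.33% of the 1246 genes showed. The log2 fold change was -1.97 in 8 libraries and -1.70 (SE 0.333, edgeR adjusted p = 0.0967) in 6. In capillary cells of the same 8 libraries Cldn5 was also lower in TAN, at -0.61 (edgeR adjusted p = 0.0405). The difference between the 2 cell types, fitted in the 6 libraries only, was -1.01 and did not pass its test (edgeR interaction, adjusted p = 0.0630).

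S1pr1, the sphingosine-1-phosphate receptor that stabilizes endothelial junctions, stood at 645, 722, 852 and 368 CPM in Ad-Lib 1, 3, 5 and 7. It stood at 342, 263, 339 and 224 CPM in TAN 2, 4, 6 and 8. The groups did not overlap, though Ad-Lib 7 and TAN 2 were close. The log2 fold change was -1.20 in 8 libraries and -1.19 (SE 0.283, edgeR adjusted p = 0.188) in 6, beside -0.46 in capillary cells (edgeR adjusted p = 0.0187).

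Aqp1 was the most even of the 5 genes. It stood at 3986, 3485, 3748 and 3922 CPM in Ad-Lib 1, 3, 5 and 7, and at 2269, 2375, 2581 and 2256 CPM in TAN 2, 4, 6 and 8. The highest TAN library stayed well below the lowest Ad-Lib library. The log2 fold change was -0.72 in 8 libraries and -0.79 (SE 0.171, edgeR adjusted p = 0.0967) in 6, and in capillary cells it was -0.58 (edgeR adjusted p = 0.00604).

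Tiparp, an ADP-ribosyltransferase induced by the aryl hydrocarbon receptor, stood at 238, 188, 216 and 228 CPM in Ad-Lib 1, 3, 5 and 7, and at 34.8, 99.7, 130 and 68.1 CPM in TAN 2, 4, 6 and 8. The log2 fold change was -1.65 in 8 libraries and -1.86 (SE 0.375, edgeR adjusted p = 0.0967) in 6, beside -1.94 in capillary cells (edgeR adjusted p = 0.0424). Arrb1, beta-arrestin 1, stood at 238, 314, 284 and 228 CPM in Ad-Lib and 133, 99.7, 104 and 117 CPM in TAN, in the same order of libraries. Its log2 fold change was -1.20 in 8 libraries and -1.10 (SE 0.287, edgeR adjusted p = 0.234) in 6, beside -0.13 in capillary cells (edgeR adjusted p = 0.813). For neither gene did the groups overlap, a pattern that 2.33% of the 1246 genes showed. All 5 called genes were picked on these same values, so their separation is no further support. For S1pr1, Aqp1, Tiparp and Arrb1 the difference between venous and capillary cells, fitted in the 6 libraries only, had an edgeR interaction adjusted p of 1.

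**Figure D4:**
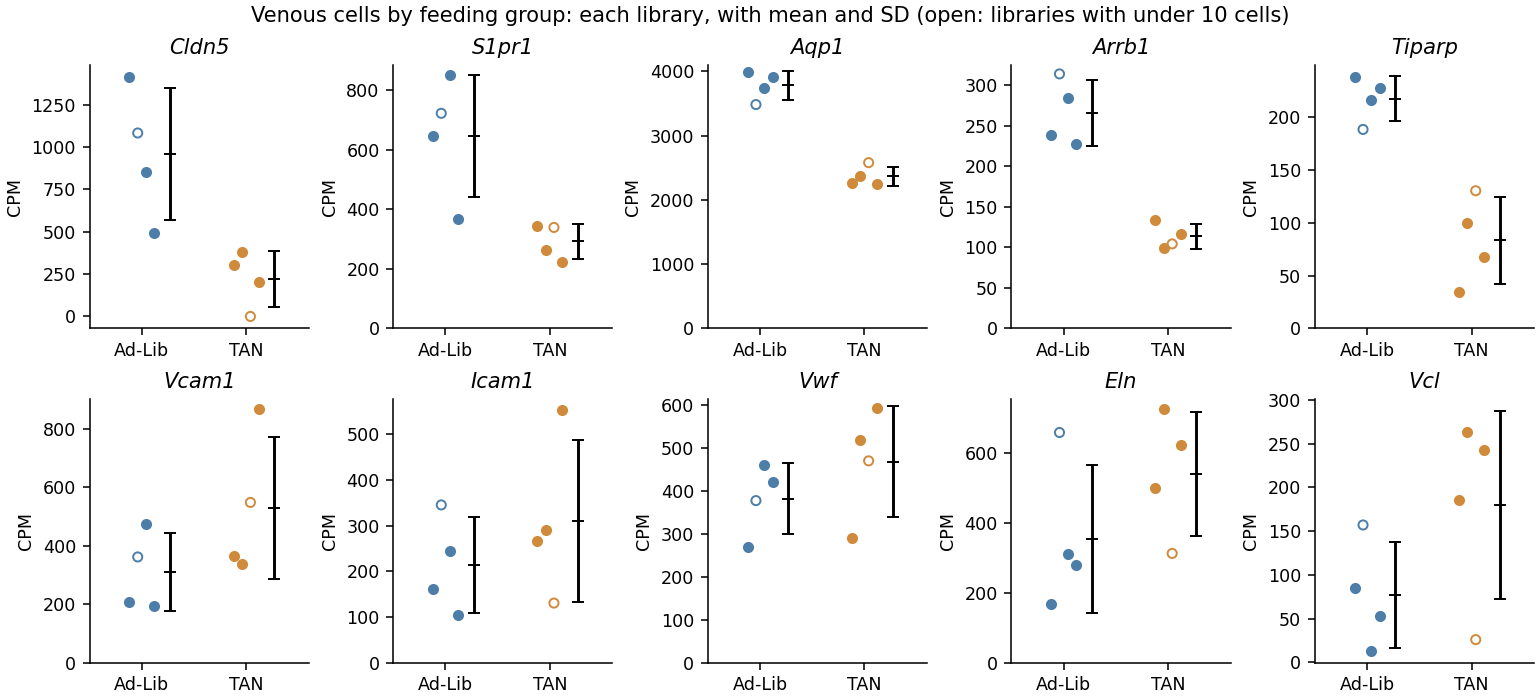
Level (CPM) of 10 genes in the venous cells of each Ad-Lib (blue) and TAN (orange) library, with the mean and SD of 4 libraries in black and open circles for the 2 libraries with under 10 cells. Cldn5, S1pr1, Aqp1, Arrb1 and Tiparp have every TAN library below every Ad-Lib library, while Vcam1, Icam1, Vwf, Eln and Vcl overlap.

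The venous adhesion and storage genes gave no call. Vcam1 stood at 207, 361, 474 and 193 CPM in Ad-Lib 1, 3, 5 and 7, and at 366, 335, 547 and 865 CPM in TAN 2, 4, 6 and 8. TAN 8 was highest, and the groups overlapped. Its log2 fold change in 6 libraries was 0.80 (SE 0.378, edgeR adjusted p = 0.598), whereas in capillary cells, where its level was far lower, it was 1.08 (edgeR adjusted p = 0.0248). In venous cells it ran from 0.30 without TAN 8 to 1.28 without Ad-Lib 5. Icam1 had a log2 fold change of 1.04 (SE 0.345, edgeR adjusted p = 0.428), with 0.60 in all 8 libraries and 0.58 with cells above 15000 UMIs left out. For Vwf it was 0.27 (SE 0.301, edgeR adjusted p = 0.910). Plvap had 0.07 (edgeR adjusted p = 0.962) in venous and 0.94 (edgeR adjusted p = 0.00467) in capillary cells. Whether these effects differ between the cell types was asked in the interaction test below, which called none of these 4 genes.

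None of the members tested in the 6-library fit was called in any list. Over all 1555 genes, 3.6% were higher and 4.57% lower in TAN at an unadjusted p under 0.05. At this threshold, 1 venous marker of 11 was higher and 1 lower in TAN (median log2 0.24), and of 12 leukocyte adhesion genes 1 was higher and 2 lower (median -0.40). Of 19 immediate early genes, 4 were higher and 1 lower (median 0.34), of 17 matrix genes 1 was higher and 4 lower (median -0.27), and of 7 glucocorticoid-responsive genes none was higher and 3 lower (median -0.52). The median log2 fold change of all genes tested was -0.015. Fos, an immediate early gene, stood at 2120, 2810, 2313 and 2714 CPM in Ad-Lib 1, 3, 5 and 7, and at 3546, 4080, 3936 and 3909 CPM in TAN 2, 4, 6 and 8. Its groups did not overlap, as for 3.61% of 1246 genes with TAN higher, and its edgeR adjusted p in 6 libraries was 0.280 at a log2 fold change of 0.66.

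The capillary sums are far deeper, and the same edgeR test called 262 of 10284 genes (2.55%) in capillary cells of those 6 libraries and 294 of 10128 (2.9%) in all 8. The number of calls therefore cannot be compared between the cell types. The interaction of cell type and feeding, with the library as a block, tests the difference directly. It called 24 of 9233 genes (0.26%), 14 with a TAN effect higher in venous than in capillary cells and 10 with a lower one. At an unadjusted p under 0.05 there were 465 of the 9233, about the share that chance alone gives at this threshold. The balance of directions was not stable: it was 8 higher and 13 lower without Ad-Lib 5, 15 higher and 5 lower without Ad-Lib 7, and 28 higher and 7 lower with doublets removed, a setting that also loses Ad-Lib 7. Its estimate of spread is shared between venous and the much deeper capillary sums.

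Most of these 24 genes rested on few venous cells. For 18 of them fewer than 20 venous cells held a UMI, for 9 at least 50% of the venous UMIs came from 1 cell, and 8 were listed markers of other cell types. Dcn had the smallest p, with a log2 difference of -5.40 (edgeR interaction, adjusted p = 1.39e-22), and 70 of its 138 UMIs were in 1 cell of Ad-Lib 1. With doublets removed, which also takes Ad-Lib 7 below 10 cells, the difference was -1.55 and the call was lost (edgeR adjusted p = 1). Acta2 (4.12) and Rgs5 (2.71) had a higher effect in venous cells, in 9 and 37 cells, and the summed pericyte markers also reached their highest level in TAN. Without Ad-Lib 1 these differences became 13.58 and 4.63, and with doublets removed that of Acta2 became 12.81. In the 6 libraries fitted, all 21 Ad-Lib UMIs of Acta2 were in 1 Ad-Lib 1 cell. The size of 13.58 thus depends on how zero counts are handled. Cxcl10, an interferon-induced chemokine, had a log2 difference of 4.16 (edgeR interaction, adjusted p = 2.29e-08). Its 84 UMIs were in 11 cells, and it stood at 99.8, 0, 27.1 and 17.5 CPM in Ad-Lib 1, 3, 5 and 7 and 267, 163, 26.1 and 29.2 CPM in TAN 2, 4, 6 and 8, so the groups overlapped. In capillary cells Cxcl10 was lower in TAN, with a log2 fold change of -2.25 (edgeR adjusted p = 0.00435).

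With UMIs in at least 20 cells there were 6 genes: Rgs5, Gsn, Vcl, Eln, Ppp1r15a and Akap12. Eln, the elastin precursor, was found in 72 cells, and stood at 169, 659, 311 and 280 CPM in Ad-Lib 1, 3, 5 and 7 and 499, 725, 313 and 622 CPM in TAN 2, 4, 6 and 8. Vcl, vinculin of focal adhesions, stood at 84.5, 157, 13.5 and 52.5 CPM in Ad-Lib and 186, 263, 26.1 and 243 CPM in TAN, in the same order of libraries. Both overlapped between the groups once Ad-Lib 3 and TAN 6 were counted. Their log2 differences from capillary cells were 1.49 and 1.83 in 6 libraries (edgeR interaction, adjusted p = 0.00892 for both), and neither call held in all 8 libraries (adjusted p = 0.807 and 0.368, edgeR). Ppp1r15a, a stress-induced phosphatase subunit, had 1.27 and Akap12, a kinase scaffold, -1.60 (edgeR interaction, adjusted p = 0.0102 for both), with adjusted p = 0.0436 and 0.0167 in 8 libraries (edgeR). Each call was lost in 4 of the 6 fits that leave out 1 library (edgeR adjusted p up to 0.585 and 0.538, both without TAN 8), with log2 differences of 1.06 to 1.47 and -2.41 to -1.28. For Gsn, 223 of 385 UMIs were in 1 Ad-Lib 7 cell.

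**Figure D5:**
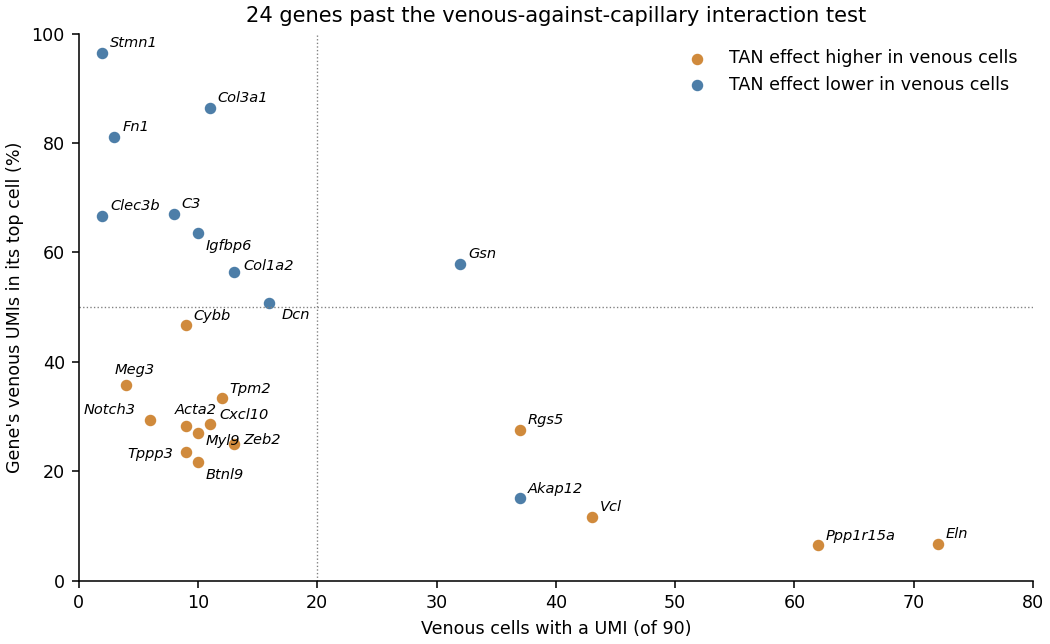
The 24 genes whose TAN effect differed between venous and capillary cells, by the number of the 90 venous cells with a UMI (x axis) and the percentage of the gene's venous UMIs found in its top cell (y axis), with dotted lines at 20 cells and 50%. Only Rgs5, Gsn, Vcl, Eln, Ppp1r15a and Akap12 lie to the right of 20 cells, and Gsn is the one of them above 50%.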

How the data were processed

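Single-cell libraries (10x Genomics 3' v3) were made from collagenase-digested inguinal fat, 4 Ad-Lib and 4 TAN, and grouped by the labels. The authors deposited raw UMI counts per gene and barcode, 1 table per library, made with Cell Ranger on mm10 (GRCm38). The labels name Cell Ranger 3.0.2 and the file headers 6.0.1. The submitters' processing notes also name Seurat. No normalization had been applied, and the lowest barcode held 500 UMIs. Coordinates are from GENCODE for GRCm38, which matched 32158 gene identifiers. No level was compared between genes.

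The filters kept 36370 of 44427 barcodes, and 2193 were removed for mitochondrial share. UMIs of the cells chosen were summed per library. Sums were tested with edgeR 4.0.16 (R 4.3.3; TMM scaling, filterByExpr, quasi-likelihood test, Benjamini-Hochberg adjustment, adjusted p under 0.05 and at least 1.5-fold; no minimum fold for the interaction, which had library as a block). DESeq2 1.42.0 was an alternative. The minimum of 10 venous cells a library left 6 libraries in these fits, although all 8 had been planned. Shares and depth were tested by exact permutation (scipy 1.17.1), and intervals were exact binomial ones at 95%. Doublets were scored against simulated ones, at 0.8% per 1000 cells, and kept in the main values.

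Named genes were those called and not overlapping (up to 20), list members called, members of the venous, adhesion, chemokine, Weibel-Palade and clock lists by value, the 10 leading genes over capillary and over arterial cells, endothelial markers, and the 10 smallest p of the interaction. Other names were chosen after values were seen. The cells, lists and tests were chosen with earlier results of these data known. Alternatives covered scaling, test, filters, doublets, the cell definition, depth and each library left out.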

Additional observations from a re-analysis of the deposited data

Results flagged for a closer look

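In venous cells, 2 of 50 groups of 4 libraries held a value far from the other 3 by Dixon's test, which chance alone gives in about 1 group of 20. Cysltr1 was at 361 CPM in Ad-Lib 3, a library with 8 venous cells, and the other Ad-Lib libraries lay between 138 and 158 CPM. Plvap was at 2007 CPM in TAN 6, which had 5 venous cells, and the other TAN libraries lay between 952 and 1099 CPM.

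The effect of TAN differed between venous and capillary cells in the edgeR interaction test for 14 genes singled out here, the 10 with the smallest p and the other 4 found in at least 20 venous cells. Log2 differences above 0, a higher effect in venous cells, were 4.16 for Cxcl10, 4.12 for Acta2, 2.71 for Rgs5, 1.83 for Vcl, 1.49 for Eln and 1.27 for Ppp1r15a. Differences below 0 were -1.49 for Gsn, -1.60 for Akap12, -2.54 for Col3a1, -4.31 for C3 and -5.40 for Dcn. For Fn1, Stmn1 and Clec3b the fitted values were -10.30, -10.20 and -10.36, and they rest on venous UMIs in 3, 2 and 2 cells, so their size depends on how zero counts are handled. Leaving out 1 library kept the calls of Dcn, Acta2, Rgs5 and Cxcl10 in all 6 such fits, and each of the other 10 was lost in at least 1 of them: C3, Fn1, Clec3b, Col3a1 and Gsn without Ad-Lib 7, Stmn1 without Ad-Lib 1, and Vcl, Eln, Ppp1r15a and Akap12 in 2 to 4 fits each. One Ad-Lib 7 cell held 198 of 229 Col3a1 UMIs and 55 of 82 C3 UMIs.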

How the results depend on the processing

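No paired analysis was possible because the Ad-Lib and TAN libraries share no replicate number. With 5 to 17 venous cells a library, shares carry wide counting error. In the 6-library fit, log2 fold changes of -1.70 for Cldn5, -1.19 for S1pr1 and 1.04 for Icam1 were not called. A gene without a call is therefore not shown to be unchanged. The difference in the share of blood endothelial cells (TAN minus Ad-Lib, percentage points) changed sign to 0.0351 with doublets removed, 0.00386 without the Stmn2 limit, 0.0723 and 0.0699 with cells thinned to 2000 and 1000 UMIs, and 0.327 with at least 1 Vwf UMI required (0.921% against 0.593%, exact permutation p = 0.0571). Leaving out 1 library gave -0.117 to 0.135, for the share of all cells -0.0408 to 0.0610, and for median UMIs 1637.75 to 2790.5. Of these, the share of all cells changed sign without TAN 2, Ad-Lib 3 or TAN 8, and that of blood endothelial cells without Ad-Lib 1, TAN 6 or Ad-Lib 7.

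Against 0 genes called for feeding, edgeR called 41 of 12225 with no filter on low counts (16 higher, 25 lower in TAN), 2 with doublets removed, 5 in all 8 libraries, 2 in all 8 but Ad-Lib 7, 2 in all 8 with Selp plus Ackr1 of at least 3, and 1 without the Stmn2 limit, which admits 7 libraries. In all 8 libraries it called 0 with at least 1 Vwf UMI, with members thinned to 2000 UMIs and without the Stmn2 limit. It also called 0 without cells holding 2 or more UMIs of a second list of other cell types' markers. This list added fibroblast markers to the planned one and left out Tagln, Rgs5, Gsn and Cd34, and 53 cells remained. Leaving out 1 of the 6 libraries gave 0 to 3 calls, with 3 without Ad-Lib 5 and 1 without Ad-Lib 7. The cause was not tested. Interaction calls numbered 16 to 35 in all alternatives and 16 to 26 with 1 library left out; leaving out 1 library ended the calls of C3, Fn1 and Clec3b (without Ad-Lib 7), Col3a1 (Ad-Lib 7 or TAN 2), Stmn1 (Ad-Lib 1), Gsn (without TAN 2 or Ad-Lib 7), Vcl (without TAN 4 or Ad-Lib 5), Eln (TAN 4, Ad-Lib 5 or TAN 8), Ppp1r15a (Ad-Lib 1, TAN 2, Ad-Lib 5 or TAN 8) and Akap12 (Ad-Lib 1, TAN 4, Ad-Lib 5 or TAN 8).

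For single genes, the log2 effect of TAN changed sign for Lrg1 (-0.045 with doublets removed, -0.14 in 8 libraries with at least 1 Vwf UMI, and -0.0042 to 0.41 with 1 library left out, the lowest without Ad-Lib 7) and Plvap (-0.037 to 0.15 with 1 library left out, the lowest without Ad-Lib 1). With doublets removed, which leaves 5 libraries since Ad-Lib 7 falls below 10 cells, the venous minus capillary difference became -1.55 for Dcn, -0.0039 for Clec3b, 7.22 for C3 and 2.85 for Col3a1, all 4 no longer called, while Gsn was called in the opposite direction (1.90, edgeR adjusted p = 0.00212). Leaving out 1 library gave -3.48 to 0.29 for Col3a1 and -2.39 to 0.010 for Gsn, both highest without Ad-Lib 7. The same fits gave -6.08 to -2.46 for C3 and 1.43 to 2.76 for Vcl. Planned feeding fits with Selp plus Ackr1 of at least 3, with at least 1 Vwf UMI and with members thinned to 2000 UMIs could not be run as planned. Nor could the fit with other cell types' UMIs removed (20 cells left). Ad-Lib kept fewer than 2 libraries with 10 cells in all of them, and TAN did so only in the last. The last was not fitted in all 8 libraries either, where only the second marker list was used. Versions of the others in all 8 libraries are given above.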
